A study of Mus musculus with 5 samples.

Results

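Voltage-gated sodium and calcium channels are built from a pore-forming alpha subunit and accessory subunits. The 37 mouse genes described here carry the symbols of those subunits (Scn followed by a number and a or b for sodium channels, Cacna, Cacnb, Cacng and Cacna2d for calcium channels) and were taken by symbol alone from a table of 19221 genes. Of the 37, 26 had at least 1 RPKM (reads divided by exon length and by library total) in at least 1 library and were analysed, as were 12783 genes of the whole table. Scn4a, Scn7a and Scn11a were not analysed here.

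RNA came from micro-punched caudate putamen, the dorsal striatum, of male C57BL/6 mice aged 9 weeks. A small infarct was made inside the striatum by photothrombosis: an optical fibre lit the tissue with a 532 nm laser for 2 min after intraperitoneal rose bengal (100 mg/kg), a dye that clots vessels where it is lit. The stroke groups are the lesioned regions at 4 hours, day 1, day 3 and day 10, each a single library from the mixed tissue of 6 animals, and the sham group is a single library of mixed punches from the left, opposite striatum, where the light was given before the dye. All groups therefore had fibre, light and dye, and the sham tissue comes from brains that held a stroke on the other side; the labels do not give the times or the number of animals in the sham mixture. With 1 library per group there is no spread between samples, no test between groups was possible, and every difference below compares single libraries.

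Sodium channels start and carry the action potential, and at the axon initial segment they set when a neuron fires. Calcium channels turn that voltage change into calcium entry: the P/Q, N and R types trigger transmitter release, the L types feed calcium to dendrites and to signalling to the nucleus, and the T types open near rest and shape burst firing. In ischaemia, loss of the ion gradients opens both kinds of channel, and sodium and calcium loading of neurons is a textbook step of excitotoxic injury. Most of the gamma subunit genes are better known as TARPs, proteins that bring AMPA-type glutamate receptors to the synapse.

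The 250 bases before the start of 2 genes are shown because these genes stand on opposite sides of the results: Cacna1i, a T-type pore gene that was low on day 1 and day 3, and Cacng5, the gene with the highest day 1 fold of the set. The sequences are from RefSeq, build GRCm38.p6, read on the gene's own strand. They are Cacna1i at chr15:80286988-80287237 (plus strand) and Cacng5 at chr11:107915056-107915305 (minus strand), the window at the annotated gene start and 1 of the 2 that RefSeq gives for Cacng5. Capitals mark a GC box (GGGCGG) or a CCAAT box (CCAAT), read on both strands; neither overlapped the other in these windows.
Cacna1i: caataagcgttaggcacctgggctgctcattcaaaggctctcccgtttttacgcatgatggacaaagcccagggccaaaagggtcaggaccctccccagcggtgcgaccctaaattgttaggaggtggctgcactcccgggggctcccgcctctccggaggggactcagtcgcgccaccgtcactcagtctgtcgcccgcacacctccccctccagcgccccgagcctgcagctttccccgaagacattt
Cacng5: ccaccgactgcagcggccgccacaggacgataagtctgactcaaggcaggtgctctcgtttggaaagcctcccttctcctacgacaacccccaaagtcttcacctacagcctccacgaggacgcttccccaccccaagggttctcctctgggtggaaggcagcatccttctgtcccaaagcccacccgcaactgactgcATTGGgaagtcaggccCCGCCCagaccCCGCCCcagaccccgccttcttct
The Cacng5 window shown held 2 GC boxes and 1 CCAAT box, and the other Cacng5 window and the Cacna1i window held none of either. RefSeq promoters were at hand for 27 of the 37 genes, in 38 windows. A GC box stood in 14 of the 38 channel windows (36.8%), against 32.7% of all 32851 windows, and a CCAAT box in 10 (26.3%), against 33.8%. The full cAMP response element TGACGTCA stood in 0 of the 38 channel windows, against 1.55% of all windows, and the TATA box TATAAA in 2 (5.26%), against 12.4%. These matches are letters in a window and were not tested as binding sites.

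Across the 26 analysed genes, levels were mixed at 4 hours low on day 1 and day 3, and closer to sham, though mostly still below it, on day 10. The median log2 fold of stroke over sham, computed as log2((stroke RPKM + 1) / (sham RPKM + 1)), was 0.12 at 4 hours, -0.47 on day 1, -0.52 on day 3 and -0.16 on day 10. Over all analysed genes the same medians were 0.28, -0.02, 0.12 and 0.07. In 21 of the 26 genes both the day 1 and the day 3 library lay below the other 3 libraries, a shape that 25% of all analysed genes had. The 5 others included Cacna1g, Cacnb3, Cacng5 and Cacng7. Over 10089 protein coding genes, longer exon length went with lower folds (Spearman rank correlation -0.41 on day 1 and -0.41 on day 3). Within the 26 channel genes this correlation was -0.13 on day 1 and -0.29 on day 3. The analysed pore genes had 9.76 to 25.2 kb of exon. The part of exon length in the channel values was not tested. The summed RPKM of all 37 genes was 663 at 4 hours, 412 on day 1, 382 on day 3 and 467 on day 10, against 515 in the sham library. In tissue punches, fewer cells of a type and less RNA per cell cannot be told apart.

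The differences were moderate in size on the log2(RPKM + 1) scale, which understates differences of low genes. On it no channel gene was 2-fold higher or 2-fold lower than sham at any time. Of the 26 genes, 13 had less than 3 RPKM in the sham library. By plain ratio some were more than 2-fold lower, among them on day 3 Cacnb2 (0.393, 0.324 to 0.474) and Scn8a (0.424, 0.376 to 0.478). The counts that follow are on the log2(RPKM + 1) scale. Among all analysed genes, 2.2% were 2-fold higher and 1.09% 2-fold lower at 4 hours, 3.33% and 1.35% on day 1, 9.04% and 0.618% on day 3, and 4.2% and 0.172% on day 10. At a limit of 1.5-fold, 4 of the 26 were higher at 4 hours (18.5% of all analysed genes) and 0 lower (3.04%). None passed after median-of-ratios scaling, which sets the median gene of each library level with sham, when 3.17% of all analysed genes did. On day 1, 7 were lower (8.48%) and 0 higher (11.1%), and on day 3, 10 were lower (5.26%) and 0 higher (22.2%). On day 10 none passed in either direction (0.759% lower and 10.5% higher among all analysed genes).

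The sodium channel beta subunits are single-pass membrane proteins that set the gating and surface level of the pore and also act as adhesion molecules. Scn4b, the subunit linked to resurgent sodium current and abundant in striatal projection neurons, had 244 RPKM at 4 hours, 96.0 on day 1, 89.3 on day 3 and 134 on day 10, against 157 RPKM in the sham library. Scn2b, which like Scn4b is joined to the alpha subunit by a disulphide bond, had 58.4 RPKM at 4 hours, 26.4 on day 1, 21.6 on day 3 and 30.1 on day 10, against 36.5 RPKM in the sham library. Scn3b had 8.21 RPKM at 4 hours, 3.42 on day 1, 2.35 on day 3 and 3.5 on day 10, against 4.33 RPKM in the sham library. All 3 were highest at 4 hours, lowest on day 3 and below sham from day 1 on.

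The ratio of stroke to sham reads could be bounded for counting error in 25 of the 26 genes, from reads recovered from the RPKM values; all intervals are exact 95% intervals and cover counting error only, not differences between animals. For Scn4b the ratio was 1.56 (1.53 to 1.59) at 4 hours, 0.613 (0.599 to 0.628) on day 1, 0.571 (0.557 to 0.585) on day 3 and 0.858 (0.840 to 0.877) on day 10. For Scn3b it was 1.90 (1.71 to 2.11) at 4 hours and 0.543 (0.467 to 0.629) on day 3. Scn2b stood at 1.60 (1.54 to 1.67) at 4 hours and 0.592 (0.561 to 0.625) on day 3. Each of the 3 genes was thus above sham at 4 hours and below it on day 3 by more than counting error.

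Scn2b and Scn4b lie next to each other on the plus strand of chromosome 9, with 8.32 kb between the end of Scn2b at 45130070 and the start of Scn4b at 45138395 (GRCm38). Scn2b over Scn4b was 0.239 at 4 hours, 0.275 on day 1, 0.242 on day 3 and 0.224 on day 10, against 0.233 in the sham library. Scn3b is on the same chromosome at 40269217 to 40291618.

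**Figure D1:**
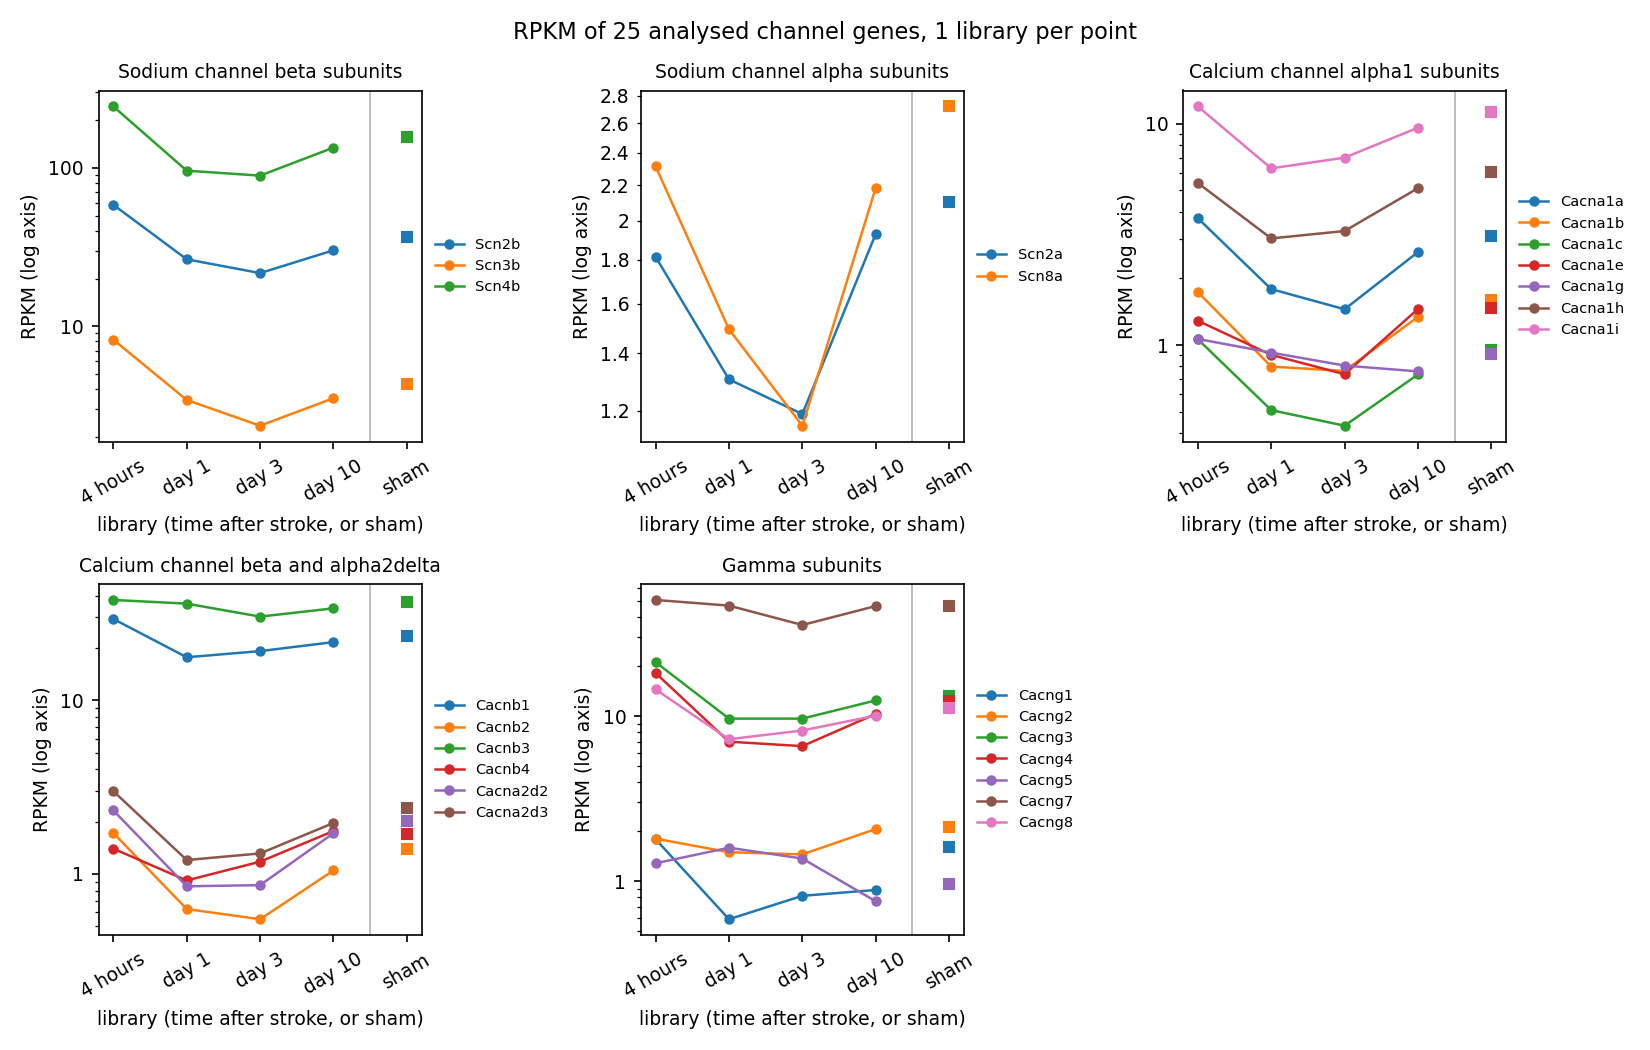
RPKM (log axis) of 25 of the 26 analysed genes in each library, 1 point per library, with the stroke times joined as circles and the sham library as a square at the right. Scn4b lies highest, between 89.3 and 244 RPKM, and most genes have their lowest points on day 1 or day 3.

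The sodium channel alpha subunits form the pore, and 2 of the 7 in the table were analysed. Scn8a, the main pore of nodes of Ranvier and of the mature axon initial segment, had 2.31 RPKM at 4 hours, 1.49 on day 1, 1.15 on day 3 and 2.18 on day 10, against 2.72 RPKM in the sham library. Scn2a, found at initial segments and in unmyelinated axons, had 1.82 RPKM at 4 hours, 1.31 on day 1, 1.19 on day 3 and 1.93 on day 10, against 2.1 RPKM in the sham library. Both were below sham in all 4 stroke libraries. At 4 hours, where the beta genes Scn2b, Scn3b and Scn4b were above sham, the Scn8a ratio was 0.851 (0.775 to 0.934) and the Scn2a ratio 0.863 (0.766 to 0.971). On day 3 the Scn8a ratio was 0.424 (0.376 to 0.478) and the Scn2a ratio 0.566 (0.492 to 0.648).

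Scn1a, a pore gene that fast-spiking interneurons rely on, stayed under the filter with 0.486 RPKM at 4 hours, 0.331 on day 1, 0.467 on day 3 and 0.635 on day 10, against 0.747 RPKM in the sham library. Its ratio was 0.443 (0.341 to 0.579) on day 1. Scn3a, the pore of the embryonic brain, had 0.225 RPKM on day 1 and 0.342 on day 3, against 0.477 RPKM in the sham library. Summed over the 7 alpha genes, stroke over sham was 0.838 at 4 hours, 0.561 on day 1, 0.514 on day 3 and 0.860 on day 10.

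The pores of presynaptic calcium channels were low together on day 1 and day 3. Cacna1a, the P/Q-type pore, had 3.74 RPKM at 4 hours, 1.79 on day 1, 1.45 on day 3 and 2.63 on day 10, against 3.10 RPKM in the sham library. Cacna1b, the N-type pore, had 1.73 RPKM at 4 hours, 0.799 on day 1, 0.764 on day 3 and 1.34 on day 10, against 1.59 RPKM in the sham library. Cacna1e, the R-type pore, had 1.29 RPKM at 4 hours, 0.903 on day 1, 0.738 on day 3 and 1.45 on day 10, against 1.47 RPKM in the sham library. All 3 were lowest on day 3, where the Cacna1a ratio was 0.468 (0.412 to 0.532) and the Cacna1b ratio 0.480 (0.394 to 0.577). Whole reads could not be recovered for Cacna1e, so its ratio has no interval.

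Among the L-type pores, Cacna1c, the main form of brain and heart, had 1.06 RPKM at 4 hours, 0.508 on day 1, 0.432 on day 3 and 0.736 on day 10, against 0.951 RPKM in the sham library. Its day 3 ratio was 0.455 (0.384 to 0.541). Cacna1d, an L-type pore that opens at more negative voltages and was below the filter, had 0.616 RPKM at 4 hours, 0.547 on day 1, 0.266 on day 3 and 0.482 on day 10, against 0.392 RPKM in the sham library. Its ratio was 1.57 (1.23 to 2.01) at 4 hours, 1.40 (1.09 to 1.80) on day 1 and 0.680 (0.498 to 0.924) on day 3, so that Cacna1d, unlike Cacna1c, was above sham on day 1. An exon of Chdh, on the opposite strand, covers 4.67% of the Cacna1d exon length, and the labels do not say if reads were counted by strand.

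The T-type pores, which include Cacna1i, the most abundant pore gene of the set, did not share a course. Cacna1i had 11.9 RPKM at 4 hours, 6.28 on day 1, 7.02 on day 3 and 9.58 on day 10, against 11.3 RPKM in the sham library. Cacna1h had 5.39 RPKM at 4 hours, 3.03 on day 1, 3.27 on day 3 and 5.11 on day 10, against 6.07 RPKM in the sham library. Both had their lowest value on day 1, with log2 folds of -0.76 for Cacna1i and -0.81 for Cacna1h, and ratios of 0.555 (0.520 to 0.592) for Cacna1i and 0.499 (0.455 to 0.548) for Cacna1h. Cacna1g, the T-type pore best known from thalamic relay neurons, had 1.06 RPKM at 4 hours, 0.924 on day 1, 0.808 on day 3 and 0.760 on day 10, against 0.911 RPKM in the sham library. Its ratio was 1.01 (0.833 to 1.23) on day 1 and 0.886 (0.718 to 1.09) on day 3. Cacna1g and Cacna1c passed the filter through the 4 hour library alone.

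The beta subunits of calcium channels sit inside the cell, bind the pore and bring it to the membrane. Cacnb3 and Cacnb1 were the abundant ones. Cacnb3 had 37.9 RPKM at 4 hours, 36.1 on day 1, 30.4 on day 3 and 33.9 on day 10, against 36.9 RPKM in the sham library. Cacnb1 had 29.4 RPKM at 4 hours, 17.7 on day 1, 19.2 on day 3 and 21.6 on day 10, against 23.5 RPKM in the sham library. On day 1 the Cacnb3 ratio was 0.978 (0.932 to 1.03) and the Cacnb1 ratio 0.754 (0.710 to 0.802), so Cacnb3 made up 65.2% of the summed beta RPKM on day 1, against 58.1% in the sham library. Cacnb2 had 1.72 RPKM at 4 hours, 0.627 on day 1, 0.547 on day 3 and 1.05 on day 10, against 1.39 RPKM in the sham library, and its day 3 ratio of 0.393 (0.324 to 0.474) was the lowest of the 25 genes with an interval at that time. Cacnb4, the gene mutated in the lethargic mouse, had 1.40 RPKM at 4 hours, 0.915 on day 1, 1.17 on day 3 and 1.76 on day 10, against 1.70 RPKM in the sham library. A430018G15Rik overlaps 16.0% of the Cacnb4 exon length on the opposite strand.

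The alpha2delta subunits lie outside the cell, raise the number of channels at the membrane, and include the binding sites of gabapentin. Cacna2d3 had 2.99 RPKM at 4 hours, 1.2 on day 1, 1.31 on day 3 and 1.96 on day 10, against 2.39 RPKM in the sham library. Cacna2d2 had 2.32 RPKM at 4 hours, 0.848 on day 1, 0.860 on day 3 and 1.71 on day 10, against 2.02 RPKM in the sham library. At 4 hours the ratio as deposited was 1.25 (1.11 to 1.41) for Cacna2d3 and 1.15 (0.996 to 1.32) for Cacna2d2, where the interval holds 1. After median-of-ratios scaling neither was above sham at 4 hours (log2 fold -0.06 for Cacna2d3 and -0.14 for Cacna2d2). Both were below sham from day 1 on. The day 1 ratio as deposited was 0.419 (0.345 to 0.507) for Cacna2d2 and 0.501 (0.427 to 0.586) for Cacna2d3. Cacna2d1, a gabapentin target under the filter, had 0.358 RPKM on day 1, against 0.480 RPKM in the sham library, with a ratio of 0.745 (0.571 to 0.971).

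Of the gamma subunit genes, 6 are TARPs. Cacng3 had 21.2 RPKM at 4 hours, 9.65 on day 1, 9.65 on day 3 and 12.4 on day 10, against 13.1 RPKM in the sham library. Cacng4 had 18.2 RPKM at 4 hours, 6.99 on day 1, 6.57 on day 3 and 10.3 on day 10, against 12.4 RPKM in the sham library. Cacng8 had 14.5 RPKM at 4 hours, 7.24 on day 1, 8.17 on day 3 and 10.1 on day 10, against 11.3 RPKM in the sham library. As deposited, these 3 were highest at 4 hours, and low on day 1 and day 3. After median-of-ratios scaling Cacng8 was no longer above sham at 4 hours (log2 fold -0.04). On the log2(RPKM + 1) scale, the Cacng4 fold of -0.82 was the lowest of the 26 genes on day 3. That scale understates differences of low genes. By ratio Cacng4 stood at 0.531 (0.475 to 0.591) on day 3, above Cacnb2 at 0.393. Cacng2, known as stargazin, had 1.81 RPKM at 4 hours, 1.5 on day 1, 1.45 on day 3 and 2.07 on day 10, against 2.12 RPKM in the sham library, and was below sham at 4 hours as well, with a ratio of 0.853 (0.713 to 1.02) that holds 1.

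The type II TARPs, Cacng5 and Cacng7, followed other courses. Cacng7, the most abundant gamma gene, had 50.5 RPKM at 4 hours, 46.7 on day 1, 35.6 on day 3 and 46.4 on day 10, against 46.3 RPKM in the sham library, and as deposited lay below sham by more than counting error on day 3 alone (ratio 0.770, 0.724 to 0.818). After median-of-ratios scaling Cacng7 log2 folds were -0.27 at 4 hours, 0.06 on day 1, -0.52 on day 3 and -0.13 on day 10. Cacng5 had 1.28 RPKM at 4 hours, 1.59 on day 1, 1.37 on day 3 and 0.755 on day 10, against 0.964 RPKM in the sham library. Its ratio was 1.65 (1.26 to 2.20) on day 1 and 1.42 (1.06 to 1.91) on day 3. Cacng5 lies 80.0 kb from Cacng4 on the minus strand of chromosome 11, and the neighbours stood on opposite sides of sham on day 1, with log2 folds of 0.40 for Cacng5 and -0.74 for Cacng4. Sham had less than 1 RPKM of Cacng5, so this gene passed the filter through stroke libraries.

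Cacng1, the gamma subunit of the skeletal muscle calcium channel, had 1.79 RPKM at 4 hours, 0.588 on day 1, 0.815 on day 3 and 0.884 on day 10, against 1.60 RPKM in the sham library. It had the lowest log2 fold of the set on day 10 (-0.47, with a ratio of 0.551, 0.320 to 0.895), on the fewest reads of the analysed genes (34 on day 1 and 53 on day 10, against 90 in the sham library). Of the 4 skeletal muscle markers 1 was analysed, Acta1, with 3.47 RPKM at 4 hours, 2.49 on day 1, 2.34 on day 3 and 2.05 on day 10, against 2.39 RPKM in the sham library. Its part in the result was not tested.

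**Figure D2:**
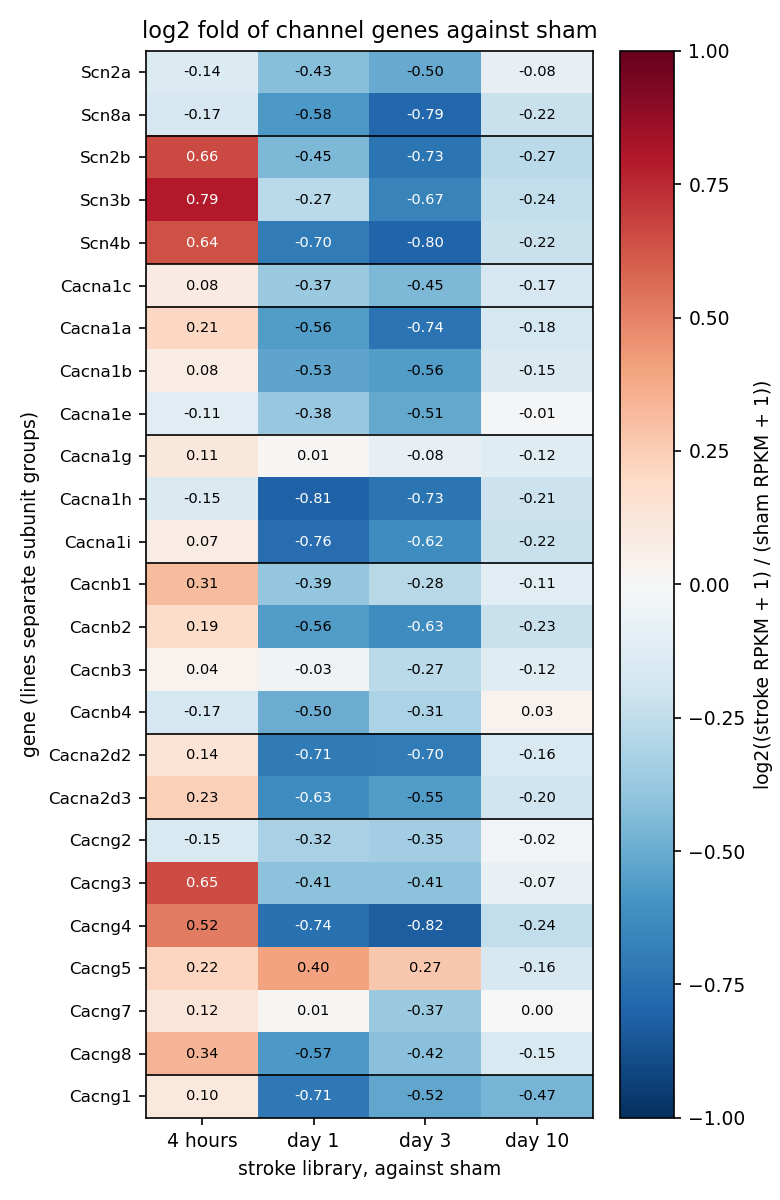
Log2 fold of stroke over sham, log2((stroke RPKM + 1) / (sham RPKM + 1)), for 25 of the 26 analysed genes (down) at 4 hours, day 1, day 3 and day 10 (across), with each value printed in its cell. On this scale, which understates differences of low genes, Scn3b has the highest fold (0.79 at 4 hours) and Cacng4 the lowest (-0.82 on day 3).

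Counted by interval, 11 of the 25 genes were above sham at 4 hours (58.8% of all genes with an interval) and 4 below (9.21%). The 4 below were Scn2a, Scn8a, Cacna1h and Cacnb4. On day 1, 20 were below sham (32.6%) and 2 above (29.4%), among them Cacng5. On day 3, 22 were below (24.6%) and 1 above (41.8%), Cacng5. On day 10, 16 were still below (14%) and 0 above (32%). After median-of-ratios scaling 23 were below, beside 2973 of all 11395 genes with an interval. After TMM scaling 22 were below, beside 2585 of the 11395. On the log2(RPKM + 1) scale the 9 analysed pore genes had medians of -0.53 on day 1 and -0.56 on day 3. The 17 accessory genes had -0.45 and -0.42. Pore genes had 0.911 to 11.3 RPKM in the sham library, and accessory genes 0.964 to 157. Because the scale understates differences of low genes, these medians do not show how close pore and accessory genes were.

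**Figure D3:**
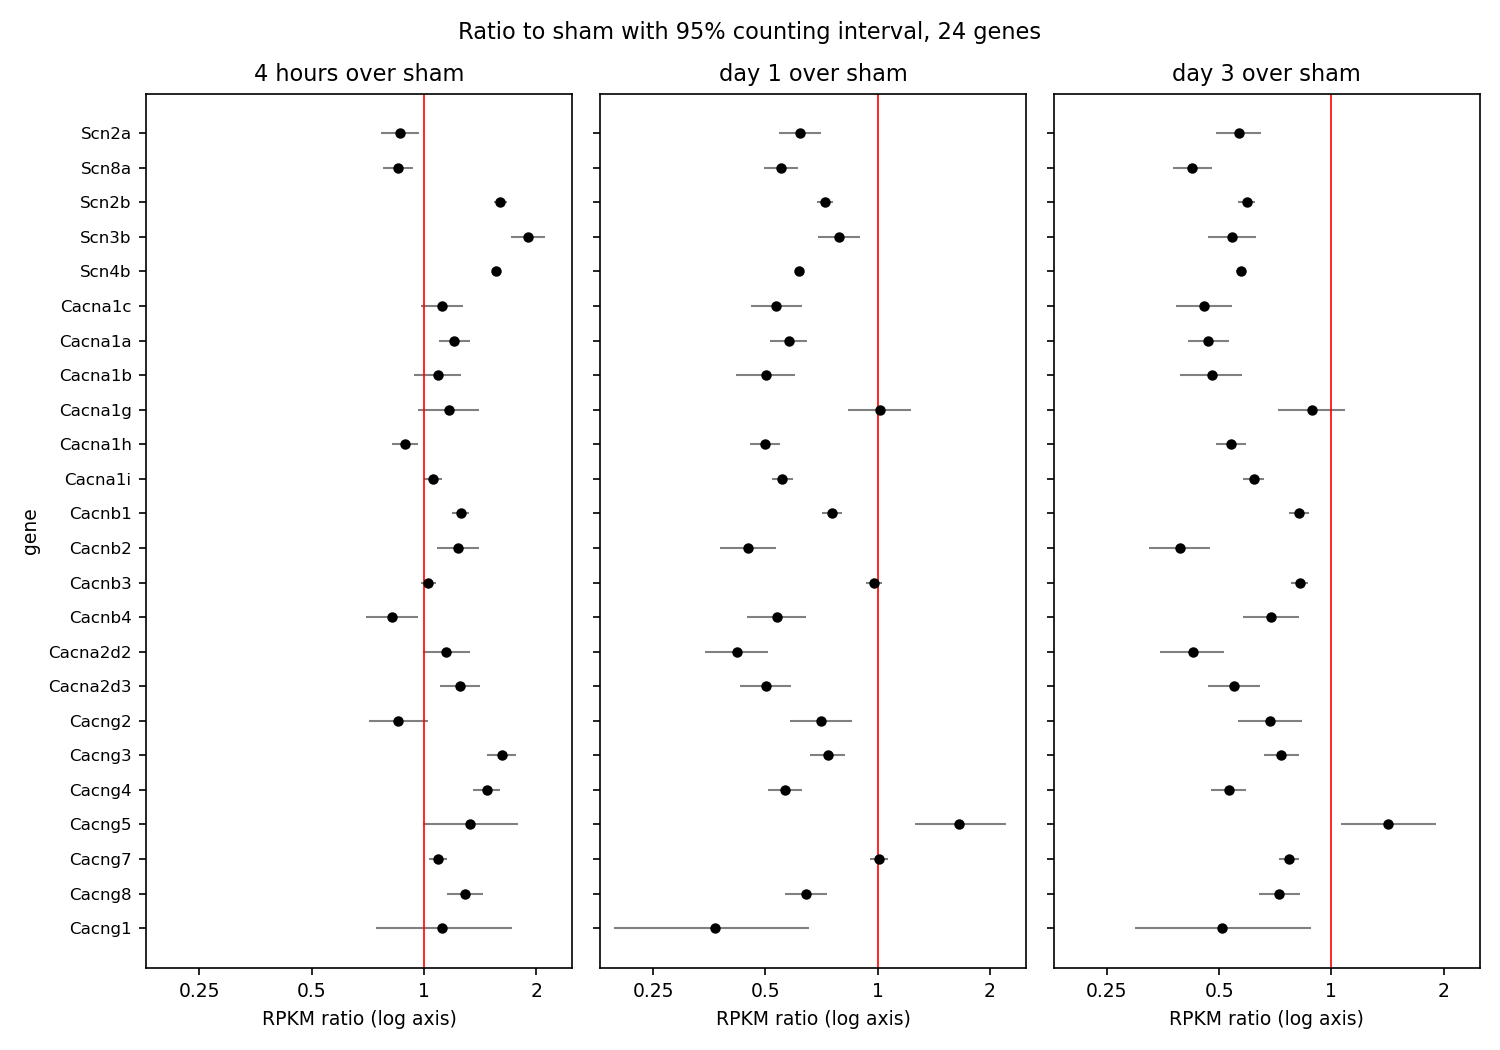
Ratio of stroke to sham (log axis) for 24 of the 25 genes with recovered reads at 4 hours, day 1 and day 3, with bars for the exact 95% interval of counting error and a line at a ratio of 1. On day 3 Cacng5 is the 1 gene whose interval lies above 1, and most intervals lie below 1.

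From 4 hours to day 1 the levels were lower for most genes. The median log2 fold of day 1 over 4 hours was -0.68, and 5 of the 26 genes were 2-fold lower (5.7% of all analysed genes), Scn4b (-1.34), Cacng4 (-1.27), Scn2b (-1.11), Scn3b (-1.06) and Cacng3 (-1.06). After median-of-ratios scaling the median was -0.32 and 0 of the 26 were 2-fold lower, beside 1.00% of all analysed genes. Day 3 over day 1 had a median of -0.07 as deposited, where all analysed genes had 0.13, and -0.18 after scaling. Day 10 over day 3 had a median of 0.39, and 21 of 25 ratios lay above 1 by more than counting error (26.5% of all genes with an interval), among them Scn8a with 1.90 (1.68 to 2.15), Cacng4 with 1.57 (1.40 to 1.75) and Scn4b with 1.5 (1.47 to 1.54).

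The direction at 4 hours depended on how libraries were put on one scale. Median-of-ratios scaling divided the 4 hour RPKM by a factor of 0.41 on the log2 scale relative to sham, as 9981 of the 12783 analysed genes were above sham at 4 hours as deposited. The channel median was then -0.12 at 4 hours, -0.44 on day 1, -0.59 on day 3 and -0.25 on day 10. After scaling the 4 hour log2 folds above sham were led by Scn3b (0.43), Cacng3 (0.27), Scn2b (0.27), Scn4b (0.24) and Cacng4 (0.14). By interval, 5 of 25 ratios then lay above 1 and 12 below 1. Among all 11393 genes with an interval, 2969 lay above 1 and 3348 below 1 on the same scaling. Of the analysed genes, 14 were 1.5-fold lower than sham on day 3 after scaling (8.48% of all analysed genes), and 7 on day 1 (7.25%). Cacng5 then stood at 0.43 on day 1 and 0.18 on day 3, where its ratio no longer excluded 1.

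Cell type markers differed between the libraries at the same times. All 9 markers of medium spiny neurons, the projection neurons of the striatum, passed the filter, among them Ppp1r1b, the phosphoprotein of dopamine-receptive neurons, with 1004 RPKM at 4 hours, 476 on day 1, 657 on day 3 and 849 on day 10, against 1019 RPKM in the sham library. Unlike Ppp1r1b, 7 of the 9 were above sham at 4 hours as deposited, as were 9981 of the 12783 analysed genes. The median log2 fold of the 9 markers was 0.37 at 4 hours, -1.02 on day 1, -0.45 on day 3 and -0.24 on day 10, with 5 of 9 2-fold lower on day 1 (1.35% of all analysed genes). For the 8 general neuron markers the medians were 0.41, -0.41, -0.57 and -0.17 at the same times. On the same log2(RPKM + 1) scale the channel medians were 0.12, -0.47, -0.52 and -0.16, close to these from day 1 on. That closeness depends on the scale, as with a pseudocount of 0.1 the channel medians were -0.68 on day 1 and -0.79 on day 3. Marker medians at that setting are not given here. Medium spiny markers were thus lowest on day 1. The lowest channel median was on day 3 over the 26 genes, but on day 1 over the 20 calcium channel genes (-0.51 on day 1 and -0.48 on day 3) and over all 37 genes with no filter (-0.38 on day 1 and -0.37 on day 3).

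Markers of other neurons stood elsewhere. The 5 cortical excitatory markers had medians of 0.50 at 4 hours, 0.48 on day 1, -0.13 on day 3 and -0.15 on day 10, and their summed RPKM was 105 at 4 hours, 100 on day 1, 63.0 on day 3 and 57.2 on day 10, against 66.9 in the sham library. For the 5 analysed striatal interneuron markers the medians were 0.66, 0.58, 0.04 and -0.20. The 7 microglia and macrophage markers had medians of -0.15 at 4 hours, -0.58 on day 1, 1.71 on day 3 and 1.76 on day 10, with 5 of 7 below sham on day 1 and 7 of 7 above it on day 3 and on day 10. Their summed RPKM was 126 at 4 hours, 133 on day 1, 1095 on day 3 and 1246 on day 10, against 154 in the sham library. Of all 12783 analysed genes, 6685 were below sham on day 1, 7533 above it on day 3 and 7787 above it on day 10. The 6 astrocyte markers had medians of -0.17, -0.44, 0.14 and 0.28 at the same times, and Gfap, an intermediate filament of astrocytes, had a log2 fold of 1.41 on day 1, when 4 of 6 were below sham. Their sums were 83.2, 312, 560 and 302 RPKM, against 163 in the sham library. The 6 oligodendrocyte markers had medians of 0.81, 0.37, -0.21 and 0.00. The 4 choroid plexus and ependymal markers had medians of 1.56, 0.49, -0.30 and -0.42, and on day 10 ranged between -6.02 and 0.82. The part of these cell types in the channel values was not tested.

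**Figure D4:**
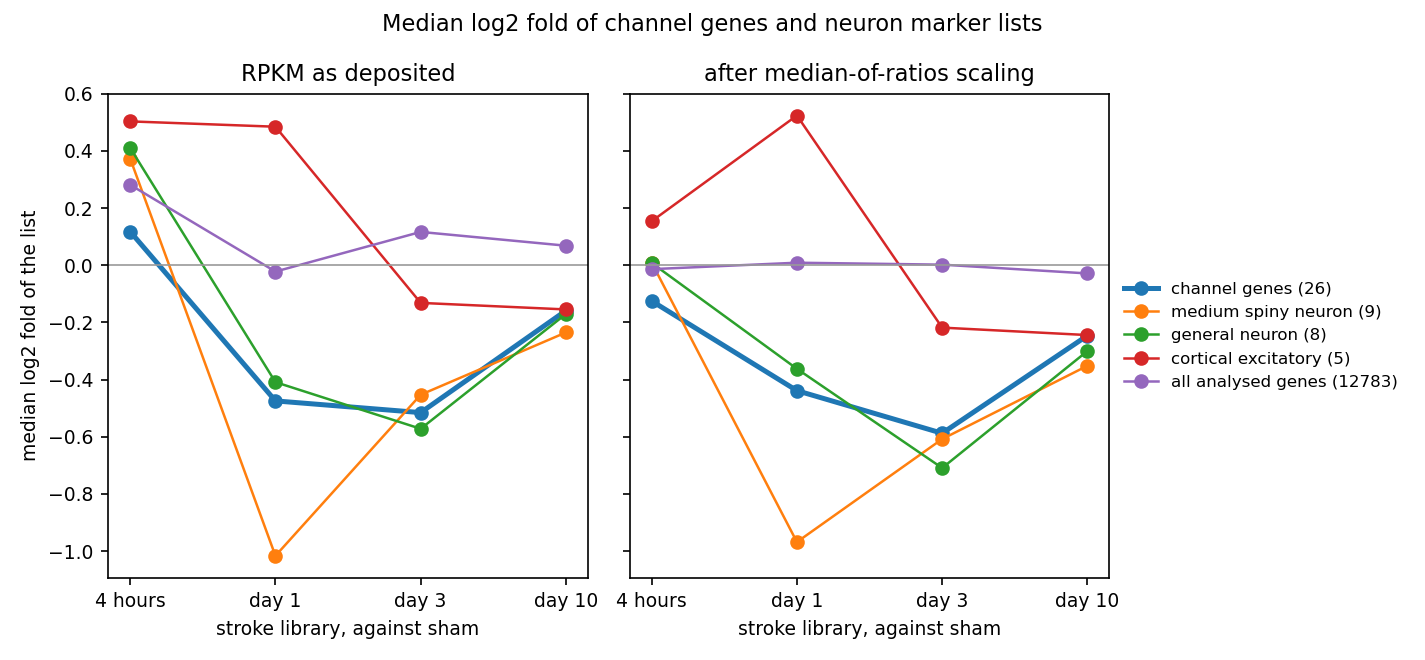
Median log2 fold of stroke over sham for the 26 channel genes, 9 medium spiny neuron markers, 8 general neuron markers, 5 cortical excitatory markers and all 12783 analysed genes, as deposited and after median-of-ratios scaling. The channel median is -0.47 on day 1 and -0.52 on day 3 as deposited, and -0.44 and -0.59 after scaling.

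Of 12 genes of the axon initial segment and of sodium channel binding, 11 were below sham on day 1 and 10 on day 3. Among the 12783 analysed genes, 6685 were below sham on day 1 and 5247 on day 3. Of the 12, 4 were 1.5-fold lower on day 1 (8.48% of all analysed genes) and 3 on day 3 (5.26%). On day 3, 1 was 1.5-fold higher (22.2%). The list had medians of 0.16 at 4 hours, -0.43 on day 1, -0.40 on day 3 and -0.11 on day 10. Fgf13, an intracellular fibroblast growth factor that binds the tail of the sodium channel pore, had 6.74 RPKM at 4 hours, 2.32 on day 1, 2.15 on day 3 and 3.54 on day 10, against 4.57 RPKM in the sham library. On the log2(RPKM + 1) scale Fgf13 was the lowest of the list on day 1 and day 3.

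Among 15 analysed genes of calcium channel binding and inhibition, medians were 0.27 at 4 hours, -0.02 on day 1, -0.43 on day 3 and -0.17 on day 10. Gem, a small GTPase that blocks calcium channels by binding their beta subunits, had 0.807 RPKM at 4 hours, 2.60 on day 1, 0.214 on day 3 and 0.436 on day 10, against 0.222 RPKM in the sham library. Its day 1 ratio was 11.7 (6.43 to 26.1), on 253 reads on day 1, against 21 in the sham library, and it was the 1 gene of the list past 2-fold (3.33% of all analysed genes were 2-fold higher). Gem reached 1 RPKM on day 1 alone and Rrad on day 3 and day 10 alone, so both passed the filter through the libraries where they were high. Rrad, of the same GTPase family, had 0.745 RPKM at 4 hours, 0.862 on day 1, 1.35 on day 3 and 1.74 on day 10, against 0.550 RPKM in the sham library. Cbarp, a membrane protein that lowers calcium channel activity through the beta subunit, had the lowest log2 fold of the list on day 1, with 22.9 RPKM on day 1, against 38.8 RPKM in the sham library.

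Of 14 analysed genes that leak or extrude sodium and calcium, 1 was 2-fold lower on day 1 (1.35% of all analysed genes) and on day 3 (0.618%), Atp2b2, a plasma membrane calcium pump of neurons. It had 32.3 RPKM at 4 hours, 10.3 on day 1, 10.3 on day 3 and 18.4 on day 10, against 23.9 RPKM in the sham library, with a ratio of 0.431 (0.413 to 0.45) on day 1. Atp1b1, a beta subunit of the sodium pump, had 106 RPKM at 4 hours, 41.3 on day 1, 29.2 on day 3 and 43.9 on day 10, against 53.7 RPKM in the sham library. The list's medians were 0.37 at 4 hours, -0.47 on day 1, -0.47 on day 3 and -0.12 on day 10. Nalcn, the sodium leak channel and a relative of the listed pores that the symbol rule does not take, had 1.13 RPKM at 4 hours, 0.452 on day 1, 0.592 on day 3 and 0.746 on day 10, against 0.923 RPKM in the sham library.

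The 11 genes under the filter included Scn1a, Scn3a, Scn9a, Scn10a, Cacna1d, Cacna1f, Cacna1s, Cacna2d1, Cacna2d4 and Cacng6, with at most 0.747 RPKM. Scn9a and Scn10a, pores of sensory neurons, stayed at or below 0.0948 RPKM, and Scn10a had 0 reads on day 3, which allows up to 0.00891 RPKM. Cacng6 had 0 reads in the sham library, which allows up to 0.0338 RPKM, and 0.120 RPKM on day 1. Cacna1s, the skeletal muscle pore, had 0.176 RPKM at 4 hours, 0.115 on day 1, 0.354 on day 3 and 0.305 on day 10, against 0.0884 RPKM in the sham library. Its ratio was 4.01 (2.14 to 8.05) on day 3 and 3.45 (1.84 to 6.95) on day 10, on 98 and 96 stroke reads, against 26 in the sham library. Gm37759, an antisense gene, overlaps 20.0% of the Cacna1s exon length, so the source of these reads is uncertain.

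Exons of other genes also overlap those of Cacng2 (5.86% of its exon length, by A730060N03Rik), Cacnb2 (4.67%, by Gm10849), Cacng8 (3.88%, by Gm23450) and Cacna1a (3.81%, by Gm16183), so a small part of their reads is of uncertain origin. Read totals recovered from the values lay between 42261786 (day 3) and 48013847 (day 10) per library, and the analysed channel genes with recovered reads had between 34 and 55946 reads in a library.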

How the data were processed

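The deposited table holds, per the file headers, the authors' RPKM value of 19221 genes in each library. It also holds the authors' log2 folds of library pairs as GFOLD values (setting 0.01), used here as an alternative. HISAT2 2.1.0, StringTie 1.3.4d, Trimmomatic 0.36 and GRCm38 are listed, without roles, in the submitters' processing notes; annotation and strand use are not given in the sources used here. Of the gene identifiers, 19158 were in GENCODE mouse release 21, which gave exon lengths and coordinates. Log2 folds used a pseudocount of 1 RPKM and genes with at least 1 RPKM in 1 library. Whole reads were recovered as RPKM times exon length and library total, to within 0.02 of a read. Of nonzero values under 5000 reads, 90.4 to 90.5% came out whole. Values of 5000 reads or more, such as those of Scn4b, were taken as whole without this check. Ratio intervals are exact conditional binomial, at 95%, on reads divided by 2 to allow for both mates of a fragment being counted. They and the limits set for 0 reads (3 reads) cover counting error only. The fitting of read totals was tested on simulated data.

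Some genes and sequences that the rule would take are not reported here. Genes named: the other analysed members, members under the filter, and the partner genes with the highest or lowest fold in a list; Scn1a, Scn3a, Cacna1d, Cacna2d1 and Cacna1s values, Ppp1r1b and Acta1 were chosen after their values were seen. Members and gene lists were chosen with earlier results of these data known. Python 3.11.15, numpy 2.4.6, pandas 2.3.3 and scipy 1.17.1 were used. The protein sequences planned for display were not used here; promoters are shown instead. Alternatives tried were scaling (median of ratios, TMM), pseudocount, filter, size limit, GFOLD and a reduced gene set.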

Additional observations from a re-analysis of the deposited data

Results flagged for a closer look

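Scn4b, Scn2b and Scn3b stood on opposite sides of the sham library at different times. Scn4b had log2 folds of 0.64 at 4 hours, -0.70 on day 1 and -0.80 on day 3. Scn2b had 0.66 at 4 hours and -0.73 on day 3, and Scn3b 0.79 at 4 hours and -0.67 on day 3. The difference between the times was not tested, since each time is 1 library and all share the same sham library.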

How the results depend on the processing

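No paired analysis was possible because each group has 1 library and the labels give no replicate numbers; for the same reason no replicate could be left out. The channel median at 4 hours was -0.12 after median-of-ratios scaling, -0.12 after TMM scaling and 0.33 over the genes with at least 5 RPKM, against 0.12 as deposited, and its sign also turned, to -0.02, without predicted genes, small RNA and mitochondrial genes. On day 1 it was -0.68 with a pseudocount of 0.1 and -0.38 with no filter. On day 3 it was -0.59 after median-of-ratios and TMM scaling, -0.79 with a pseudocount of 0.1 and -0.58 once predicted, small RNA and mitochondrial genes were left out. With a pseudocount of 0.1, 3 genes were 2-fold lower on day 1 and 4 on day 3. The authors' GFOLD value, which is not a plain log2 fold, was -1 or less for 1 gene on day 1 and 2 on day 3. At 1.5-fold the counts were 4 higher at 4 hours, 7 lower on day 1 and 10 lower on day 3. Medians on day 1, day 3 and day 10 kept their sign under every alternative run. Low genes carry wide counting intervals, and the spread between animals is unknown at every level.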
